A study of Mus musculus with 16 samples.

Results

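The genes described here are 44 regulators and effectors of the cell division cycle, chosen by gene symbol from a list drawn up by phase. They comprise 15 G1/S genes, 6 S phase genes, 20 G2/M genes and 3 inhibitors of cyclin-dependent kinases (CDKs), and all 44 were found among the 46882 rows of the deposited count tables. All 44 passed the filter on low counts, which left 16001 genes. The lowest count of a member in any library was 49 reads, for E2f1. RNA was sequenced in bulk from epithelial cells sorted out of 2 regions of the gut, as 16 libraries in 4 groups of 4, from mice of the RedMUC298trTg strain aged 6 to 8 weeks. The groups were mCherry-positive goblet cells of the distal colon (DC goblet), the mCherry-negative remainder of that epithelium (DC other), mCherry-positive goblet cells of section 8 of the small intestine (Si8 goblet) and its mCherry-negative remainder (Si8 other). All mice carried the mCherry reporter, the labels name no promoter for it, and a C57Bl6 mouse only set the sort gate. The labels do not say whether libraries came from separate animals, so p-values measure the spread between these libraries, which may be technical.

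Cells enter the division cycle through D cyclins, which with their kinases release E2F transcription factors to switch on the genes of DNA replication. Licensing factors load the MCM helicase onto replication origins in G1, S phase enzymes supply nucleotides and copy the DNA, and cyclin B with Cdk1 drives mitosis, whose genes are switched on in G2 by the Foxm1 and Mybl2 programme. In the intestine, division is confined to stem and progenitor cells of the crypt, and mature goblet and absorptive cells have left the cycle, a step in which CDK inhibitors of the Cip/Kip family take part.

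Library totals, in units of 1e6 counts, ran from 11.9 to 18.5 in DC goblet, 14.9 to 17.7 in DC other, 37.4 to 40.5 in Si8 goblet and 30.8 to 41.1 in Si8 other libraries. The labels call the mCherry-negative cells colonocytes in DC and enterocytes in Si8. All 8 goblet markers rose in goblet cells of both regions and all 9 absorptive markers fell. Si8 goblet libraries also held Paneth cell products, which summed to between 12098 and 32300 CPM (counts per 1e6 counts of a library), against 660 to 1762 CPM in Si8 other libraries. The 10 most abundant genes took 8.93 to 9.43% of counts in DC goblet, against 17.5 to 28.4% in Si8 goblet libraries. Mitochondrially encoded genes had no count in DC and took 3.19 to 4.07% of counts in Si8 goblet and 6.07 to 8.36% in Si8 other libraries, a difference between the tables of the regions; leaving these genes out moved no count of members called by over 1.5 times. RNA of goblet cells and of other cells was purified on different columns, and this step and the cell type cannot be told apart. In bulk RNA, fewer cycling cells and less RNA per cycling cell cannot be told apart either.

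Goblet cells of section 8 carried more RNA of nearly every cell cycle gene than the other epithelial cells there. Relative to Si8 other cells, 39 of the 44 members were higher and 2 were lower, where 33.1% of all genes tested were called higher and 31.8% lower (edgeR adjusted p under 0.05). Their median log2 fold change was 0.62, against 0.03 over all genes tested. In the distal colon fewer members passed the test. There 3 members were higher and 2 lower, where 27.8% of all genes were called higher and 27.9% lower. The count of members higher ran from 2 to 10 when 1 library at a time was left out, with 10 without DC other library S14, and was 8 with no filter on low counts. The median was 0.25, against 0.03 over all genes, and 38 of the 44 estimates were positive. The groups did not overlap for 24 members above and 1 below in Si8, beside 26.7% and 27.3% of all genes, and for 2 above and 1 below in DC, beside 26.7% and 27.2%.

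**Figure D1:**
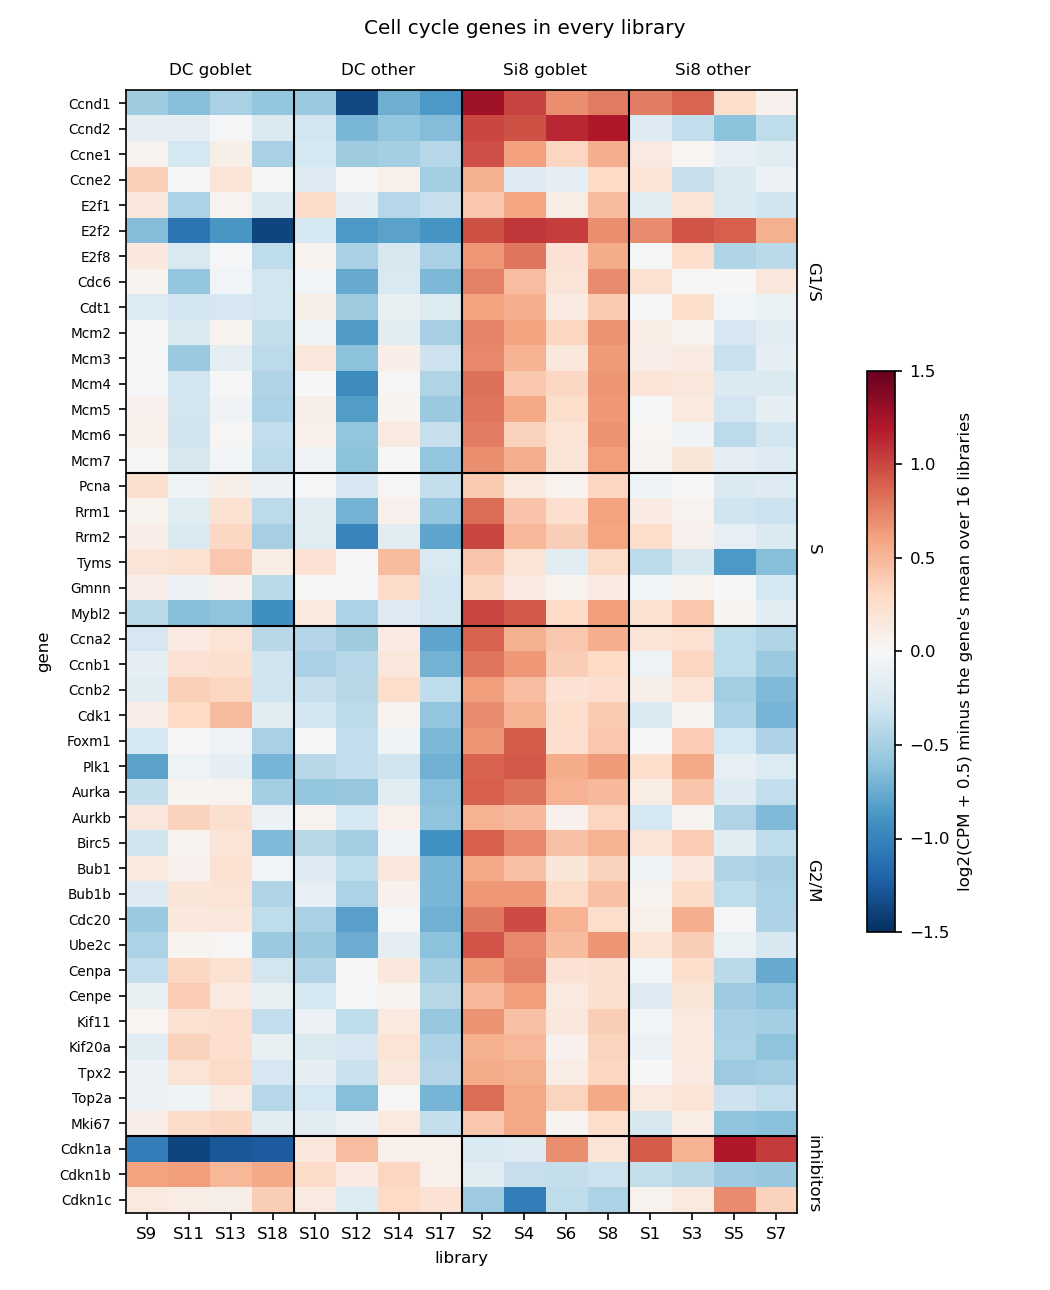
Each row is a gene and each column a library, and colour gives log2(CPM + 0.5) minus the gene's mean over the 16 libraries. Lines separate the G1/S, S, G2/M and inhibitor genes and the 4 groups. The Si8 goblet block is the reddest for the 3 phase subsets, and within a group whole columns are darker or paler together.

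The 15 G1/S genes spanned a wider range of changes in Si8, from 0.16 to 1.46 on the log2 scale, than the S genes (0.22 to 0.73) or the G2/M genes (0.58 to 0.80). Ccnd2 alone set the upper end. Without it the range was 0.16 (E2f2) to 0.71 (E2f8), close to that of the S genes. In DC the 15 genes ran from −0.30 to 0.41. The D cyclin Ccnd2, which pairs with Cdk4 and Cdk6 to start the inactivation of the retinoblastoma protein, lies at chr6:127125162-127152193 (GRCm38, minus strand). Ccnd2 stood at 214, 211, 229.9 and 201 CPM in DC goblet libraries and at 192, 145, 157 and 149 CPM in DC other libraries. In Si8 it stood at 472, 455, 513 and 539 CPM in goblet libraries and at 204, 182, 152 and 180.2 CPM in other libraries. Every goblet library lay above every other-cell library of its region, and the gap was wider in Si8. The log2 fold change of Ccnd2 was 0.41 ± 0.10 (SE; edgeR adjusted p = 0.00158) in DC and 1.46 ± 0.10 (adjusted p = 2.39e-10) in Si8; it was the only member to rise by 1 or more on the log2 scale in either region, beside 9.16% of all genes in DC and 8.92% in Si8. The difference between those effects, DC minus Si8, was −1.05 ± 0.14 (adjusted p = 9.33e-06).

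Ccnd1, the other D cyclin of the list, followed another pattern. It stood at 84.5, 78.4, 87.4 and 82.3 CPM in DC goblet libraries and at 83.3, 47.9, 73.8 and 67.3 CPM in DC other libraries, which overlapped. In Si8, Ccnd1 stood at 297, 249, 200 and 212 CPM in goblet and at 210.2, 226, 148 and 128 CPM in other libraries, which also overlapped. The change in Si8 was 0.43 ± 0.18 (edgeR adjusted p = 0.0474) and its call was lost in 15 of 22 alternative settings, while that in DC was 0.29 ± 0.18 (adjusted p = 0.199). Per kilobase of exon, Ccnd1 and Ccnd2 averaged 50.8 ± 9.24 and 52.6 ± 4.09 CPM per kb in Si8 goblet cells (SD, n = 4), whereas in Si8 other cells they averaged 37.8 ± 10.1 and 19.1 ± 2.27 CPM per kb. In DC goblet cells they averaged 17.7 ± 0.806 and 22.7 ± 1.27 CPM per kb, against 14.5 ± 3.18 and 17.1 ± 2.29 in DC other cells. On this scale Ccnd1 and Ccnd2 overlapped in Si8 goblet cells, and every Ccnd1 level lay above every Ccnd2 level in Si8 other cells. Exons of Ccnd1 share 23.4% of their length with the opposite-strand gene LTO1, and the strand setting of the counting is not given in the sources used here.

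The E cyclins, which activate Cdk2 at the start of replication, were among the scarcer members. Ccne1 stood at 6.18, 4.86, 6.38 and 4.12 CPM in DC goblet and 4.89, 3.95, 4.04 and 4.29 CPM in DC other libraries. In Si8 it stood at 12.1, 9.40, 7.60 and 8.90 CPM in goblet and 6.61, 6.11, 5.43 and 5.25 CPM in other libraries. The Si8 groups were separate and the DC groups overlapped, with log2 fold changes of 0.70 ± 0.15 (edgeR adjusted p = 4.31e-04) in Si8 and 0.33 ± 0.17 (adjusted p = 0.105) in DC. Ccne2 had 17.5, 13.7, 15.6 and 13.7 CPM in DC goblet and 11.8, 13.8, 14.4 and 9.36 CPM in DC other libraries. It had 19.9, 11.8, 12.2 and 16.9 CPM in Si8 goblet and 15.6, 10.6, 11.6 and 12.8 CPM in Si8 other libraries. Ccne2 was the E cyclin that passed the test in no comparison, with 0.30 ± 0.18 (adjusted p = 0.157) in DC and 0.27 ± 0.17 (adjusted p = 0.166) in Si8. Of its exon length, 17.4% overlaps Ints8 on the opposite strand.

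Of the 3 E2F factors, the activator E2f2 showed the largest regional gap of any member and no called goblet effect. E2f2 (chr4:136172394-136196057, plus strand) stood at 28.8, 21.1, 24.7 and 17.2 CPM in DC goblet and 37.8, 24.8, 25.8 and 24.5 CPM in DC other libraries. In Si8 it stood at 88.6, 95.3, 94.1 and 73.9 CPM in goblet and 74.6, 88.0, 85.4 and 66.1 CPM in other libraries. All 8 libraries of DC lay below all 8 of Si8. The goblet effect on E2f2 was −0.30 ± 0.16 (edgeR adjusted p = 0.125) in DC and 0.16 ± 0.15 (adjusted p = 0.349) in Si8. The activator E2f1 and the repressor E2f8 were higher in Si8 goblet cells, by 0.56 ± 0.18 (adjusted p = 0.0113) and 0.71 ± 0.17 (adjusted p = 0.00146), and overlapped between the groups. In DC their changes were 0.03 ± 0.20 and 0.17 ± 0.18, neither of which passed the test.

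The 8 licensing factors moved as a block in Si8. Cdc6 and Cdt1 load the hexameric helicase made of Mcm2 to Mcm7, and all 8 were higher in Si8 goblet cells, by 0.40 (Cdt1) to 0.68 (Mcm6) on the log2 scale, with no overlap of the groups for 6. In DC none of the 8 was called, and their estimates ran from −0.14 (Mcm3) to 0.25 (Mcm2). Among all genes, 33.1% were called higher in Si8 and 27.8% in DC, and 26.7% were separate and higher in Si8. Mcm3 stood at 38.2, 26.4, 35.2 and 29.6 CPM in DC goblet and 44.1, 25.3, 41.8 and 31.4 CPM in DC other libraries, which overlapped. It stood at 64.9, 56.2, 43.8 and 61.4 CPM in Si8 goblet and 42.1, 42.8, 31.0 and 35.5 CPM in Si8 other libraries, which were separate. The changes in Mcm3 were −0.14 ± 0.17 (edgeR adjusted p = 0.507) in DC and 0.58 ± 0.17 (adjusted p = 0.00591) in Si8. The goblet effect differed between regions for 3 licensing factors, by −0.72 ± 0.24 for Mcm3 (adjusted p = 0.0289), −0.66 ± 0.23 for Mcm6 (adjusted p = 0.0383) and −0.49 ± 0.18 for Cdt1 (adjusted p = 0.041). The 3 are 37.5% of the licensing factors, beside 16.5% of all genes called lower in the test of the difference. Each of these 3 differences lost its call in 9 or more of 21 alternative settings.

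E2F factors bind a short motif in promoters of replication genes, and its letters can be read in the promoters of Mcm3 and Mcm6, which are shown because their goblet effects differed most between regions among the licensing factors. The sequences are RefSeq's, from 250 bases before to 50 after the start of the gene (GRCm38.p6, minus strand, 5′ to 3′). Capitals mark the E2F letters searched (TTTGGCGC, TTTCCCGC, TTTCGCGC or TTTGCCGC) and CCAAT, the letters of the NF-Y box, on either strand.
Mcm3, chr1:20820263-20820562: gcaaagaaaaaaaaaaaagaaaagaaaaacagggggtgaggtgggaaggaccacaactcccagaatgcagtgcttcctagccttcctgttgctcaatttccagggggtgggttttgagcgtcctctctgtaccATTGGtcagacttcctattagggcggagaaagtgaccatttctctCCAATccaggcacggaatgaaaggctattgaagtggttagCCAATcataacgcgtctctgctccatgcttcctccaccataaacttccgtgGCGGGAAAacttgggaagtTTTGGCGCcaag
Mcm6, chr1:128359656-128359955: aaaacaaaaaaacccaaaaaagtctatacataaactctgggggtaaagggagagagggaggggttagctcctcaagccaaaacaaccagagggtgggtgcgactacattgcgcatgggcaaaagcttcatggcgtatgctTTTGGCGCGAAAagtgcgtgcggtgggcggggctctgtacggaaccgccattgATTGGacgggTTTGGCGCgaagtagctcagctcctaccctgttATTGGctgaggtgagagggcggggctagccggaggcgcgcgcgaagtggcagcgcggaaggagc
Mcm3 holds E2F letters at 20 and 39 bases past the start. Mcm6 holds them at −110, −106 and −47, and the matches at −110 and −106 overlap each other. A promoter sequence was matched for 33 of the 44 members. E2F letters occurred in 7 of 11 G1/S promoters, 0 of 5 S promoters and 1 of 15 G2/M promoters, against 3.88% of the 10713 promoters of tested genes and 2.32% of all 27025. A match is a description of the letters and not of binding. A promoter with no match may still hold an E2F site, since only the exact letters listed were searched, in the window given.

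The 6 S phase genes comprise the replication clamp Pcna, the ribonucleotide reductase subunits Rrm1 and Rrm2, the thymidylate synthase Tyms, the licensing inhibitor Gmnn and the transcription factor Mybl2. In Si8 goblet cells 5 of the 6 were higher, beside 33.1% of all genes. In DC 1 was lower and none higher, beside 27.9% and 27.8% of all genes. Mybl2 (chr2:163054687-163084688, plus strand), a partner of the MuvB complex at mitotic genes, was 1 of 6 members with a negative estimate in DC and, beside Cdkn1a, the other called lower there. It stood at 7.06, 5.92, 6.07 and 4.78 CPM in DC goblet and 10.5, 6.67, 8.20 and 7.73 CPM in DC other libraries, with 1 goblet library inside the range of the other cells. In Si8, Mybl2 stood at 19.4, 18.3, 11.8 and 14.9 CPM in goblet and 11.2, 12.7, 9.75 and 8.36 CPM in other libraries, with the lowest goblet library below the highest other library. Its change was −0.47 ± 0.18 (edgeR adjusted p = 0.0364) in DC and 0.61 ± 0.16 (adjusted p = 0.00285) in Si8. The effects differed by −1.09 ± 0.25 (adjusted p = 0.00199), the largest difference of a phase member, and that call held in every alternative setting run. The call of Mybl2 within DC was lost in 6 of 22 settings.

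Tyms showed the largest rise of the S subset in Si8. It stood at 33.9, 34.7, 39.5 and 32.0 CPM in DC goblet and 34.5, 29.6, 41.3 and 25.3 CPM in DC other libraries. In Si8 it stood at 39.8, 34.3, 26.4 and 36.3 CPM in goblet and 22.5, 25.0, 16.1 and 18.8 CPM in other libraries. The DC groups overlapped around the level of Si8 goblet cells, and Si8 other cells were the low group. Tyms rose by 0.73 ± 0.15 in Si8 (edgeR adjusted p = 4.53e-04), the DC change was 0.10 ± 0.16 (adjusted p = 0.603), and the effects differed by −0.63 ± 0.22 (adjusted p = 0.0349), a call lost in 11 of 21 alternative settings. It was also the phase member that was higher in DC other than in Si8 other cells, by 0.66 ± 0.16 (adjusted p = 0.00107). Gmnn, which binds Cdt1 and blocks a further round of licensing, had the smallest change of the subset in Si8. Gmnn stood at 16.7, 14.6, 16.3 and 11.6 CPM in DC goblet, 15.8, 15.2, 19.1 and 12.7 CPM in DC other, 19.4, 17.1, 16.1 and 17 CPM in Si8 goblet and 15.1, 16.1, 15.5 and 12.9 CPM in Si8 other libraries. Its changes of −0.08 ± 0.13 in DC and 0.22 ± 0.12 in Si8 did not pass the test. Rrm2 had the largest estimate of the S subset in DC, with 26.5, 21.0, 30.7 and 17.4 CPM in goblet and 21.8, 12.2, 21.9 and 14.1 CPM in other libraries. The groups overlapped and the change of 0.45 ± 0.21 did not pass the test (adjusted p = 0.0778).

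The 20 G2/M genes were the most uniform subset. They include the cyclins Ccna2, Ccnb1 and Ccnb2 with their kinase Cdk1, the mitotic kinases Plk1, Aurka and Aurkb, the spindle checkpoint proteins Bub1 and Bub1b, the anaphase-promoting complex partners Cdc20 and Ube2c, and the division markers Top2a and Mki67. All 20 were higher in Si8 goblet cells, by 0.58 to 0.80 on the log2 scale, and all 20 estimates in DC were positive, from 0.06 to 0.49, with 1 called. That count ran from 0 to 7 when 1 library at a time was left out, with 7 without DC other library S14, and was 5 with no filter on low counts. Of all genes, 33.1% were called higher in Si8 goblet cells and 27.8% in DC goblet cells. The groups were separate for 11 of the 20 in Si8 and for none in DC, beside 26.7% of all genes separate and higher in each region. No G2/M gene passed the test of the difference between regions with all 16 libraries and the filter on low counts, and all 20 estimates of that difference were negative, from −0.58 to −0.22. The standard errors of that difference were 0.23 to 0.33. Exons of Kif20a and Ube2c share 29.3% and 22.8% of their length with genes on the opposite strand.

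Cdk1 (chr10:69335146-69352938, minus strand) was the G2/M gene with the largest change in both regions. It stood at 43.7, 50.4, 56.9 and 36.1 CPM in DC goblet and 33.3, 31.0, 42.2 and 26.9 CPM in DC other libraries. It stood at 66.8, 58.8, 48.9 and 53.5 CPM in Si8 goblet and 34.8, 41.9, 29.2 and 25.0 CPM in Si8 other libraries. The Si8 groups were separate, and in DC the lowest goblet library lay below the highest other library. Cdk1 rose by 0.49 ± 0.17 in DC (edgeR adjusted p = 0.0216) and by 0.80 ± 0.17 in Si8 (adjusted p = 4.61e-04), and the DC call was lost without any 1 of 4 DC libraries (S11 or S13 of the goblet cells, S12 or S17 of the other cells).

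Plk1, the polo-like kinase of mitosis, had the smallest G2/M change in DC. It stood at 11.7, 19.6, 18.8 and 12.6 CPM in DC goblet and 15.4, 15.9, 16.8 and 12.4 CPM in DC other libraries. The goblet libraries fell on both sides of the others, and the change was 0.06 ± 0.19 (edgeR adjusted p = 0.822). Ccnb2 had the smallest G2/M change in Si8, where it stood at 52.1, 46.3, 38.8 and 40.0 CPM in goblet and 35.5, 38.5, 23.2 and 20.9 CPM in other libraries. The gap between the groups was narrow, and the rise was 0.58 ± 0.21 (adjusted p = 0.0211), a call lost in 4 of 22 alternative settings (without Si8 goblet library S2, without Si8 other library S5 or S7, and with no filter). Mki67, the gene of the Ki-67 antigen, ranged from 314 to 433 CPM in DC goblet and from 273 to 386 CPM in DC other libraries, and from 359 to 523 CPM in Si8 goblet and 226 to 377 CPM in Si8 other libraries. It rose by 0.65 ± 0.16 in Si8 (adjusted p = 0.00184), and its DC change of 0.25 ± 0.16 did not pass the test.

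Promoters of G2/M genes are known for CCAAT boxes near a cell cycle homology region (CHR), the element bound by the MuvB complex. Cdk1 and Ccnb2 are shown, the G2/M members with the largest and the smallest change in Si8, from the same RefSeq window and build, both minus strand and 5′ to 3′. Capitals mark CCAAT and the CHR letters searched (TTTGAA, its variant form TTCGAA, or the other variant form TTTAAA) on either strand, and the E2F letters.
Cdk1, chr10:69352863-69353162: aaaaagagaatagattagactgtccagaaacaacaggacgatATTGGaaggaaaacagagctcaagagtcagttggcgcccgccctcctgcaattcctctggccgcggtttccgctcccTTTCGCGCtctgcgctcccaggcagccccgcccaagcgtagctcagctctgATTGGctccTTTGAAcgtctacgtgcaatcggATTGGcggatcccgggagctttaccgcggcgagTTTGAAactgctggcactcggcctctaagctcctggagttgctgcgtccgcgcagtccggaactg
Ccnb2, chr9:70421505-70421804: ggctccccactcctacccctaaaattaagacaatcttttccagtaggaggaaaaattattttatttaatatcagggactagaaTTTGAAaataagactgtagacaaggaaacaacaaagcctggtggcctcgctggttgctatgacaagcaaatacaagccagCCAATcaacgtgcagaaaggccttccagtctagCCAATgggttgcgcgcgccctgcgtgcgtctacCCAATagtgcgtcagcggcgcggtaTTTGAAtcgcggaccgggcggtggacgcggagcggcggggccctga
In Cdk1 the CCAAT letters begin at −208, −80 and −48, CHR letters begin at −71 and −15, and E2F letters begin at −131. In Ccnb2 the CCAAT letters begin at −87, −54 and −21, evenly spaced, with CHR letters at −167 and 5. CHR letters occurred in 15 of 15 matched G2/M promoters, 5 of 11 G1/S and 1 of 5 S promoters, against 21.4% of promoters of tested genes and 29.0% of all. CCAAT occurred in 14 of 15 G2/M, 7 of 11 G1/S and 3 of 5 S promoters, against 38.5% of tested and 37.9% of all. Both kinds of letters occurred in 14 of 15 G2/M promoters, against 8.68% of promoters of tested genes. TATAAA occurred in 0 of the 33 member promoters, against 7.5% of tested genes. No match of one kind overlapped a match of another kind in the 4 promoters printed.

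**Figure D2:**
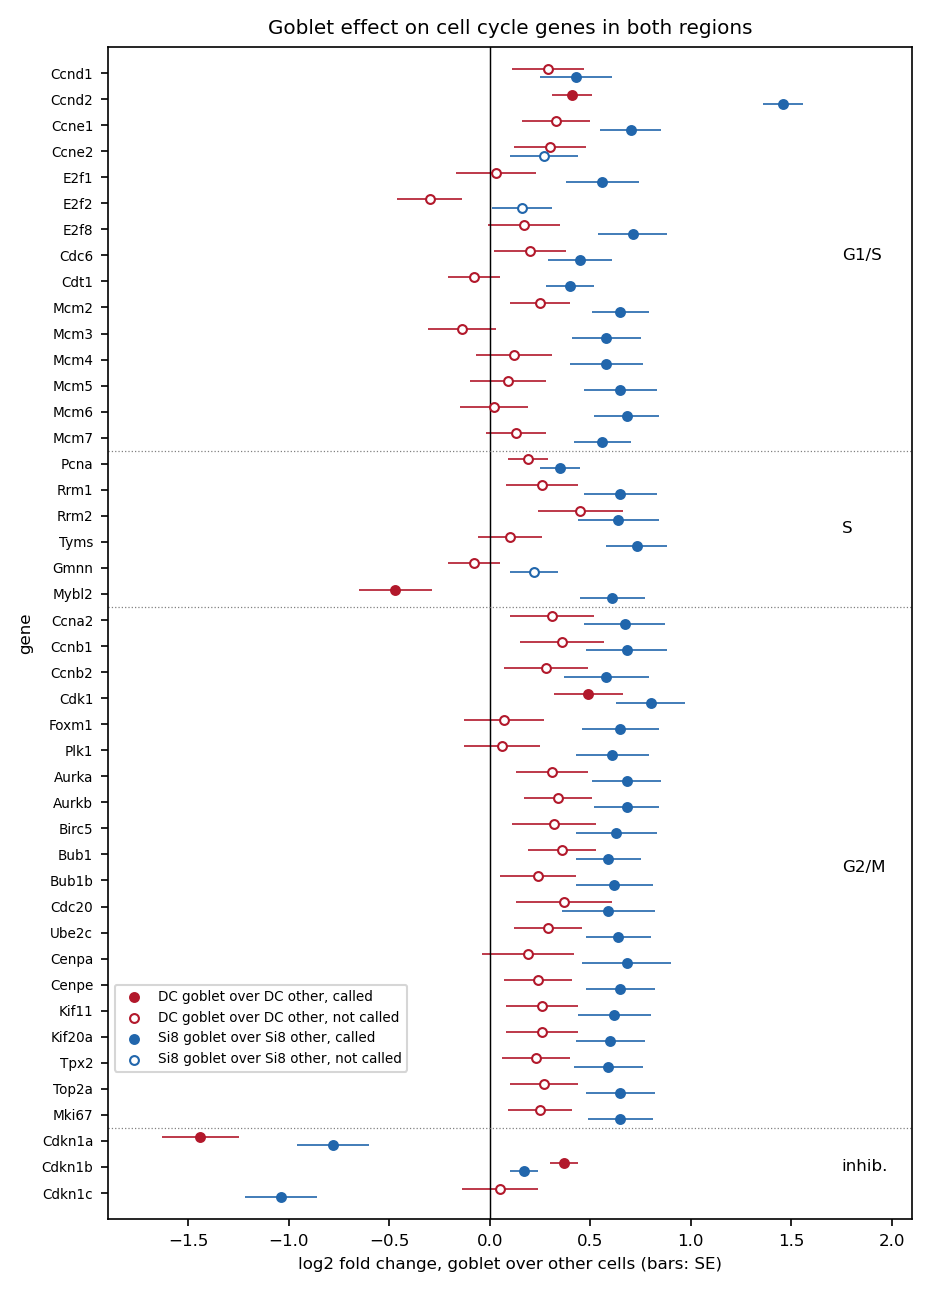
Points are log2 fold changes of goblet over other epithelial cells for each of the 44 members, in DC (red) and Si8 (blue), with bars for the SE and filled points for called genes. The blue points of the G2/M genes lie between 0.58 and 0.80 and the red ones between 0.06 and 0.49, and Cdkn1a, among the inhibitors at the bottom, lies below 0 in both regions.

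Of the 3 inhibitors, Cdkn1a was lower in goblet cells of both regions, Cdkn1b was higher in both, and Cdkn1c was lower in Si8. The Si8 rise of Cdkn1b lost its call in 14 of 22 alternative settings. Cdkn1a (p21, chr17:29090976-29100727, plus strand), the main p53 target among CDK inhibitors, stood at 47.8, 37.9, 40.8 and 41.3 CPM in DC goblet and 111, 136, 104 and 104 CPM in DC other libraries. In Si8, Cdkn1a stood at 84.4, 86.6, 160.4 and 113 CPM in goblet and 186, 142, 229 and 206 CPM in other libraries. The groups were separate in DC, and in Si8 1 goblet library (S6) lay above the lowest other library. Cdkn1a fell by 1.44 ± 0.19 in DC (edgeR adjusted p = 4.92e-06) and by 0.78 ± 0.18 in Si8 (adjusted p = 0.00124) on the log2 scale, and both calls held in every alternative setting run. Falls of 1 or more were made by 13.5% of all genes in DC and 14.5% in Si8, and by 1 member in each, Cdkn1a in DC and Cdkn1c in Si8. The difference of −0.66 ± 0.26 between regions did not pass the test (edgeR adjusted p = 0.061), but it was called in 5 of 21 alternative settings.

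Cdkn1b (p27, chr6:134920401-134925513, plus strand), an inhibitor of cyclin E and cyclin A kinases, went the other way. It stood at 121, 122, 112 and 117 CPM in DC goblet and 96.7, 86.2, 99.2 and 83.5 CPM in DC other libraries, and at 70.1, 62.1, 61.6 and 63.1 CPM in Si8 goblet and 61.6, 59.0, 54.2 and 53.4 CPM in Si8 other libraries. The DC groups were clearly apart and the Si8 groups nearly met. Cdkn1b rose by 0.37 ± 0.07 in DC (edgeR adjusted p = 3.14e-04), and by 0.17 ± 0.07 in Si8 (adjusted p = 0.0498), where the call was lost in 14 of 22 alternative settings. Cdkn1c (p57, chr7:143458339-143461050, minus strand), an imprinted inhibitor, stood at 4.87, 4.72, 4.66 and 5.73 CPM in DC goblet and 4.83, 3.69, 5.47 and 5.13 CPM in DC other libraries, which overlapped. In Si8, Cdkn1c stood at 2.83, 1.87, 3.23 and 2.99 CPM in goblet and 4.52, 4.85, 7.44 and 5.64 CPM in other libraries, with every goblet library below every other library. It fell by 1.04 ± 0.18 in Si8 (adjusted p = 5.34e-05), the DC change was 0.05 ± 0.19 (adjusted p = 0.828), and the effects differed by 1.10 ± 0.26 (adjusted p = 0.00302). Of its exon length 30.7% overlaps Gm44732 on the opposite strand, so its reads are uncertain without the strand setting.

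Per kilobase of exon the inhibitors changed rank between groups. Cdkn1a and Cdkn1b averaged 11.8 ± 1.18 and 25.9 ± 0.983 CPM per kb in DC goblet cells, and 32.1 ± 4.31 and 20.1 ± 1.69 CPM per kb in DC other cells (SD, n = 4). In Si8 they averaged 31.3 ± 9.95 and 14.1 ± 0.871 CPM per kb in goblet cells, and 53.7 ± 10.3 and 12.5 ± 0.86 CPM per kb in other cells. DC goblet cells were thus the 1 group in which the Cdkn1b level per kb lay above that of Cdkn1a, in all 4 libraries. Cdkn1c averaged between 1.34 and 2.75 CPM per kb in the 4 groups, the lowest of the 3 in each.

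**Figure D3:**
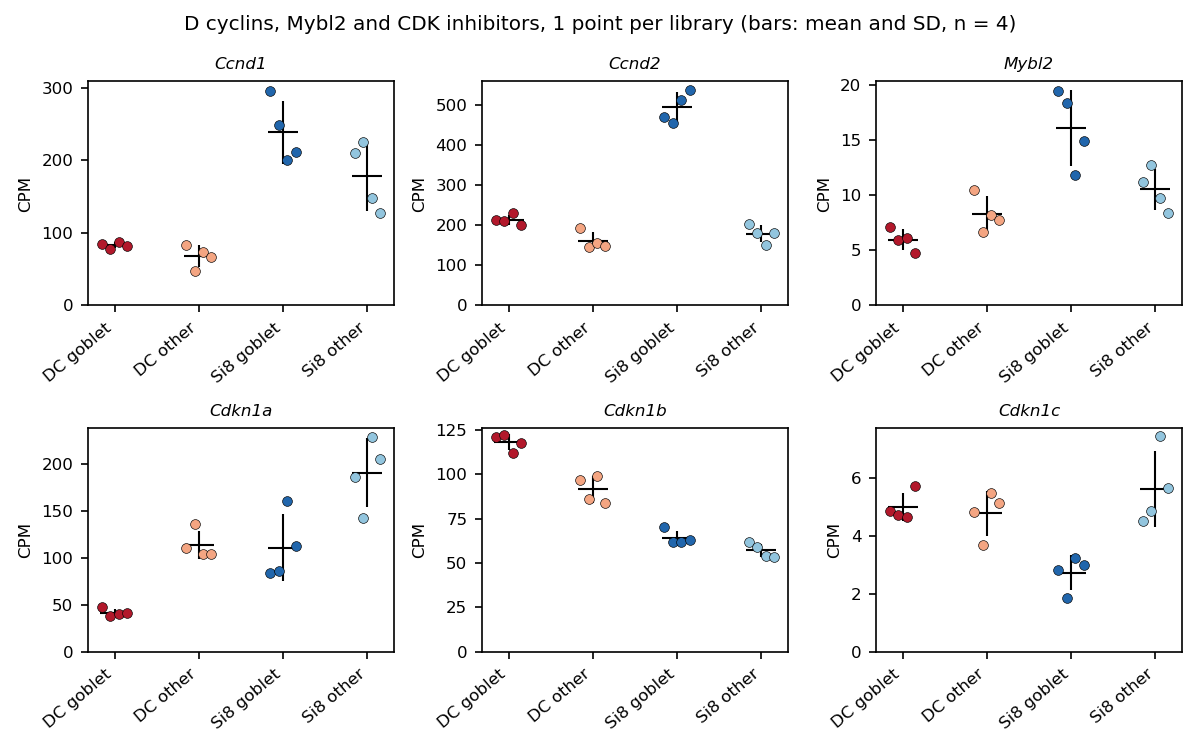
CPM of Ccnd1, Ccnd2, Mybl2, Cdkn1a, Cdkn1b and Cdkn1c in every library (points), with the mean and SD of each group (bars, n = 4). Ccnd2 stands apart in Si8 goblet cells (455 to 539 CPM), Cdkn1a is lowest in DC goblet cells (37.9 to 47.8 CPM) and Cdkn1b is highest there (112 to 122 CPM).

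Si8 goblet cells had the highest mean sum of each phase subset, and the inhibitors had a lower mean sum in goblet than in other cells of each region. The inhibitor sum joins opposite directions, since Cdkn1a was lower and Cdkn1b higher in goblet cells of both regions. In Si8 the call of Cdkn1b was lost in 14 of 22 alternative settings. The 15 G1/S genes summed to 689 ± 68.8 CPM in DC goblet and 604 ± 117 CPM in DC other cells, and to 1419 ± 112 CPM in Si8 goblet and 830.0 ± 113 CPM in Si8 other cells (SD, n = 4). The 20 G2/M genes summed to 1334 ± 217 and 1105 ± 211.5 CPM in DC goblet and DC other cells, and to 1846 ± 247 and 1179 ± 278 CPM in Si8 goblet and Si8 other cells. The 3 inhibitors summed to 165 ± 6.5 CPM in DC goblet against 210.2 ± 13.7 CPM in DC other cells, and to 178 ± 33.8 CPM in Si8 goblet against 253 ± 35.3 CPM in Si8 other cells. The ratio of the G2/M sum to the licensing sum was 4.12 ± 0.701 in DC goblet, 3.65 ± 0.727 in DC other, 3.46 ± 0.355 in Si8 goblet and 3.3 ± 0.42 in Si8 other cells, and these ranges overlapped.

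**Figure D4:**
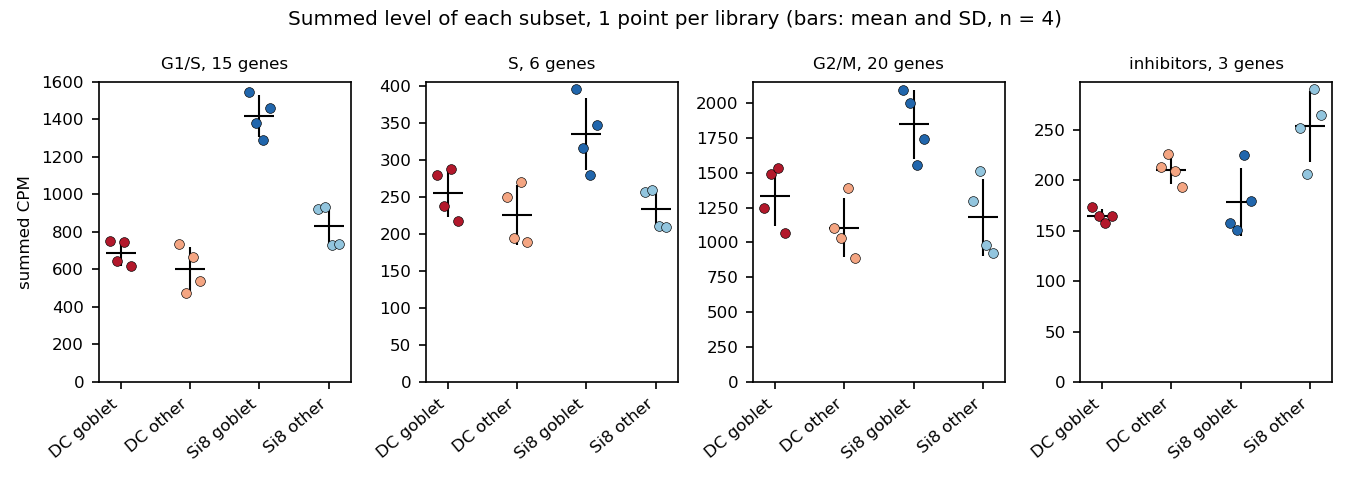
Summed CPM of the 15 G1/S, 6 S, 20 G2/M and 3 inhibitor genes in every library (points) with the mean and SD of each group (bars, n = 4). The Si8 goblet points of the G1/S panel lie between 1287 and 1548 CPM, above all other groups, those of the G2/M panel start at 1551 CPM against at most 1533 CPM elsewhere, and the lowest of the S panel lies at 280.6 CPM, below the highest DC goblet point at 288.3 CPM.

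Between regions, members were mostly lower in DC, and more of them were called between the goblet groups than between the other cells. Each region has its own table of counts, and mitochondrially encoded genes had no count in that of DC. Region and the processing of its table therefore cannot be told apart. DC goblet cells were lower than Si8 goblet cells for 28 members and higher for 2, where 31.5% of all genes were called lower and 30.6% higher. The median log2 fold change of the members was −0.68, against −0.02 over all genes. All 8 licensing factors were lower, by 0.65 to 0.81, and 10 of 20 G2/M genes. The groups did not overlap for 27 members below and 2 above, beside 28.9% and 28.3% of all genes. The falls of 1 or more on the log2 scale, made by 13.1% of all genes, were E2f2 (−1.94 ± 0.16), Ccnd1 (−1.52 ± 0.18), Mybl2 (−1.43 ± 0.18), Cdkn1a (−1.40 ± 0.19), Ccnd2 (−1.21 ± 0.10) and Plk1 (−1.17 ± 0.18). Cdkn1b and Cdkn1c were the 2 that were higher in DC goblet cells, by 0.88 ± 0.07 (edgeR adjusted p = 4.93e-09) and 0.87 ± 0.19 (adjusted p = 5.32e-04). DC other cells were lower than Si8 other cells for 11 members and higher for 2, where 33.6% of all genes were called lower and 33.3% higher. There the median was −0.20, against 0 over all genes, and the largest falls were E2f2 (−1.47 ± 0.16) and Ccnd1 (−1.39 ± 0.19).

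The count of the region comparisons hangs on the scaling. With library totals in place of TMM the median of all genes moved by 0.34 between the goblet groups and 0.27 between the other cells, and 10 and 3 members were called lower. Under that scaling 48% of all genes were called higher and 16.9% lower between the goblet groups, and 45% and 22.6% between the other cells. The members' median was then −0.34 between the goblet groups, beside 0.32 for all genes, and 0.06 between the other cells, beside 0.27 for all genes, so that the direction of the last one turned on the scale while it stayed below all genes. Ccnd1, Ccnd2, Ccne1, E2f2, Mcm3, Mybl2, Plk1, Aurka, Ube2c and Cdkn1a were the 10 that were called lower between goblet groups under both scalings.

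The goblet effect itself was tested for a difference between regions. The log2 fold change was lower in DC than in Si8 for 6 members (Ccnd2, Mybl2, Mcm3, Mcm6, Tyms and Cdt1), beside 16.5% of all genes. It was higher in DC for 1, Cdkn1c, beside 15.6% of all genes. Cdkn1c was called lower in Si8 goblet cells and was not called in DC. Mybl2 was called lower in DC and higher in Si8 goblet cells. Of the 44 estimates 41 were negative, with a median of −0.38 against −0.03 over all genes. The 6 belong to the G1/S and S subsets, but 4 G2/M genes were also called without Si8 other library S3, and 2 with no filter on low counts. The 6 are 13.6% of the members, a share near that of all genes, and 2 to 11 members were called lower when 1 library at a time was left out.

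Libraries of one group differed from each other along the whole list. Of the 41 phase members, 37 had both S1 and S3 above both S5 and S7 in Si8 other cells. In the same libraries Cdkn1a and Cdkn1c were lower in S1 and S3, and so were 7 of the 9 absorptive markers. The 20 G2/M genes summed to 1297, 1515, 982 and 921 CPM in S1, S3, S5 and S7, where the 9 absorptive markers summed to 12072, 9983, 15534 and 17418 CPM. The library with more absorptive RNA thus had less G2/M RNA throughout that group. In Si8 goblet cells S2 and S4 lay above S6 and S8 for 25 of 41 phase members, and S6 was lowest for 35. Its 8 goblet markers summed to 286860.2 CPM, against 125831, 135489 and 201458 CPM in S2, S4 and S8. In DC other cells S10 and S14 lay above S12 and S17 for 32 of 41. In DC goblet cells S9 and S13 lay above S11 and S18 for 21, and S11 and S13 above S9 and S18 for 20. Library S18 was lowest there for 30. The part of absorptive or goblet RNA in the results was not tested.

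**Figure D5:**
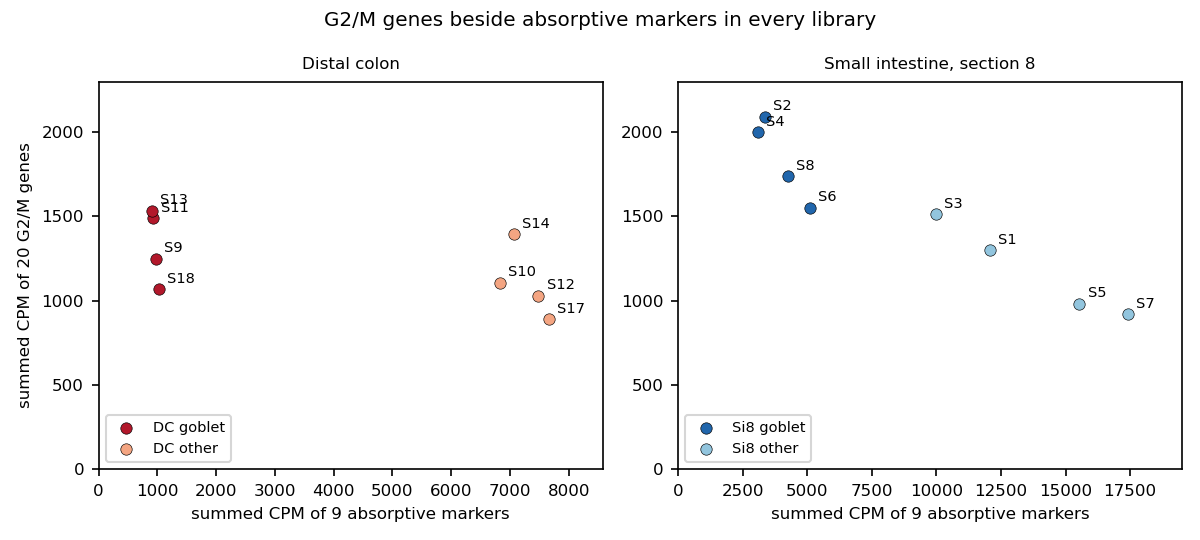
Summed CPM of the 20 G2/M genes (vertical) against summed CPM of the 9 absorptive markers (horizontal) in every library, DC on the left and Si8 on the right, each point named by its library. Among Si8 other cells the points descend from S3 (9983 and 1515 CPM) to S7 (17418 and 921 CPM), and in DC the groups overlap on the vertical axis.

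The markers of other cell types moved with the goblet contrast as well. Of all genes, 33.1% were called higher and 31.8% lower in Si8 goblet cells, and 27.8% and 27.9% in DC goblet cells. The absorptive markers summed to 906 to 1029 CPM in DC goblet against 6831 to 7658 CPM in DC other libraries, and to 3096 to 5094 CPM in Si8 goblet against 9983 to 17418 CPM in Si8 other libraries, with none of the 9 at 0 in any group. Of the 9 stem cell markers, 7 were higher and 1 lower in Si8 goblet cells, where they summed to 825 to 1351 CPM against 770.1 to 858 CPM in Si8 other cells. Most of that sum was Olfm4, with a mean of 680.7 of 1030.8 CPM in Si8 goblet and 501.3 of 822.6 CPM in Si8 other cells. In DC 1 stem cell marker was higher and 1 lower, and the sums were 250.4 to 285 CPM in goblet and 248 to 277 CPM in other cells, with Olfm4 at 0 in all DC other libraries. All 6 Paneth markers were higher in Si8 goblet cells, and 5 of 6 in DC, where the sum reached no more than 38.9 CPM in goblet and 1.19 CPM in other cells and Defa24 was at 0. All 8 lymphocyte markers were lower in Si8 goblet cells, with sums of 11.6 to 20.4 CPM against 215 to 339 CPM in Si8 other cells. In DC 4 of 8 were lower, with sums of 1.43 to 1.88 CPM in goblet, where Cd3g, Cd7, Gzma and Gzmb were at 0, against 5.94 to 7.07 CPM in other cells. The part of these cells in the results on the cell cycle genes was not tested.

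Further genes of the pathway were counted in the same way. Of 31 other S phase genes, 28 were higher (90.3%, beside 33.1% of all genes) and none lower in Si8 goblet cells, and 5 were higher (16.1%, beside 27.8% of all genes) and none lower in DC. The repair glycosylase Ung led both, at 1.22 ± 0.17 (edgeR adjusted p = 3.8e-06) in DC and 1.10 ± 0.16 (adjusted p = 6.6e-06) in Si8, followed by Tipin (0.41 ± 0.15) in DC. The smallest called changes were Slbp (0.26 ± 0.08), the histone mRNA binding protein, and Wdr76 (0.37 ± 0.14) in DC, and Slbp (0.21 ± 0.08) and Usp1 (0.30 ± 0.09) in Si8. For 12 of the 31 (38.7%, beside 16.5% of all genes) the goblet effect was lower in DC than in Si8, and for none higher. Of 36 other G2/M genes, 33 were higher (91.7%) and 1 lower in Si8 goblet cells, and 7 were higher (19.4%, below the 27.8% of all genes) and 2 lower in DC. Psrc1 (0.81 ± 0.19) and the cytokinesis protein Anln (0.76 ± 0.18) led in Si8, and Hmmr (0.50 ± 0.19) and Cbx5 (0.49 ± 0.15) in DC. Gas2l3 was lower in both regions, by 0.61 ± 0.15 in DC and 0.96 ± 0.14 in Si8, Tubb4b was lower in DC (−0.35 ± 0.08), and Ckap5 had the smallest called rise in Si8 (0.26 ± 0.08).

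Of 22 regulators of the cycle engine, 6 were higher and 6 lower in DC goblet cells, 27.3% each way beside 27.8% and 27.9% of all genes. In Si8 goblet cells 14 were higher (63.6%, beside 33.1% of all genes) and 6 lower (27.3%, beside 31.8%). Ccnd3, the D cyclin outside the list of 44, rose by 1.14 ± 0.09 in DC (edgeR adjusted p = 1.2e-09) and by 1.02 ± 0.09 in Si8 (adjusted p = 3.57e-09). Its level was 5.69 ± 0.529 CPM per kb in DC goblet against 2.58 ± 0.216 in DC other cells, and 4.67 ± 0.347 in Si8 goblet against 2.29 ± 0.116 in Si8 other cells. With an exon union of 8775 bases for Ccnd3, these levels lay below both Ccnd1 and Ccnd2 in each group. That rank depends on the length used, and the lengths of the transcripts present were not tested. Cdc25b, a phosphatase that activates Cdk1, rose by 1.56 ± 0.14 in Si8 (adjusted p = 1.62e-08), and Mycn by 0.97 ± 0.20 in DC (adjusted p = 3.75e-04). The activator E2f3 was lower in both regions, by 1.11 ± 0.11 in DC (adjusted p = 3.18e-08) and 0.64 ± 0.10 in Si8 (adjusted p = 1.7e-05). The E2F partner Tfdp2 was lower in DC (−0.53 ± 0.07), and Fzr1, which directs the anaphase-promoting complex in G1, was lower in Si8 (−0.74 ± 0.10).

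Of 20 genes of cell cycle arrest 19 were tested. Of these, 4 were higher and 9 lower in DC goblet cells, beside 27.8% and 27.9% of all genes. In Si8 goblet cells 7 were higher and 8 lower, beside 33.1% and 31.8% of all genes. Ccng2, an arrest-linked cyclin, fell by 3.22 ± 0.16 in DC (edgeR adjusted p = 8.14e-12). Mxd1, a Myc antagonist, fell by 2.84 ± 0.26 in DC (adjusted p = 8.76e-08). Mxi1, another Myc antagonist, fell by 2.11 ± 0.12 in Si8 (adjusted p = 1.82e-11). The p53 target Trp53inp1 rose by 1.73 ± 0.17 in DC (adjusted p = 1.36e-07) and by 1.55 ± 0.17 in Si8 (adjusted p = 6.01e-07). Its direction was the opposite of that of Cdkn1a, another p53 target, in both regions. Sesn1 moved in opposite directions, rising by 0.75 ± 0.09 in DC (adjusted p = 4.08e-07) and falling by 1.40 ± 0.08 in Si8 (adjusted p = 1.13e-11), a difference of 2.15 ± 0.12 (adjusted p = 5.2e-11). The Si8 changes of Cdkn2a (−3.41 ± 0.49) and Phlda3 (1.42 ± 0.36) rest on few reads, with 0 to 5 counts of Cdkn2a in goblet against 18 to 27 in other libraries, and 12 to 23 counts of Phlda3 in goblet against 3 to 9 in other libraries.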

How the data were processed

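Per the labels' protocols, epithelium was dissociated with EDTA and collagenase, sorted on mCherry, and made into ribosomal-RNA-depleted, stranded, paired-end libraries. Per the submitters' processing notes, reads were handled with STAR 2.4.0f, FastQC 0.11.2, DESeq2 1.14 and HTSeq 0.6.1p1 on build mm10. Tool settings, annotation and strand setting: not given in the sources used here. The authors deposited raw read counts per gene, 1 table per region. A table of values scaled by size factors was not used here.

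Counts were filtered with filterByExpr and scaled with TMM. A single edgeR 4.0.16 quasi-likelihood model (R 4.3.3) of the 4 groups was fitted to 16 libraries and 16001 genes, after 4 rows with repeated symbols were left out. P-values were adjusted over all genes by the Benjamini-Hochberg method, and a gene is called at an adjusted p under 0.05. CPM use TMM-scaled totals, SEs derive from the log2 fold change and F, and a positive value means higher in the group named before. Levels per kb divide CPM by the union of exons in GENCODE M21. Ranks of genes on that scale depend on this length, which counts every annotated exon whether used or not. The model was tested on simulated data. The members, lists and tests were chosen with earlier results of these data known. Per-library values are given, by rule, for the largest and smallest change of each subset in each goblet contrast, the D and E cyclins, the inhibitors, members that went against their subset, and the extreme differences between regions; of the other lists the 2 largest and 2 smallest called changes are named, except 1 that is not reported here.

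The alternatives were DESeq2 1.42.0, its size factors, library totals, no filter, fits of only the groups compared, removal of mitochondrially encoded genes, and leaving out each library in turn.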

Additional observations from a re-analysis of the deposited data

Results flagged for a closer look

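In DC other cells, 3 members had a library far from the other 3 of its group: E2f2 at 37.8 CPM in library S10, and Ccnb2 at 40.1 CPM and Aurka at 20.3 CPM in library S14. These are 3 of 192 groups of 4 values looked at, where chance alone marks about 1 in 20.

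For 7 members the goblet effect differed between the regions by the test of the difference itself. The 6 called lower are 13.6% of the members, beside 16.5% of all genes. The 1 called higher is 2.27% of the members, beside 15.6% of all genes. The difference on the log2 scale, DC minus Si8, was −1.09 for Mybl2, −1.05 for Ccnd2, −0.72 for Mcm3, −0.66 for Mcm6, −0.63 for Tyms and −0.49 for Cdt1. It was 1.1 for Cdkn1c, which was lower in Si8 goblet cells and was not called in DC.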

How the results depend on the processing

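No paired analysis was run, because the labels do not say which libraries came from one mouse. The library numbers are all different, and goblet and other cells hold neighbouring numbers, such as S1 and S2 or S9 and S10. Every test treats the libraries as unpaired. If neighbouring numbers were pairs, an unpaired test could miss a change that is steady within them, which was not tested. Taken by neighbouring numbers, the G2/M sum in DC was higher in the goblet library each time. It was 1248 CPM (S9) against 1107 (S10), 1487 (S11) against 1030 (S12), 1533 (S13) against 1393 (S14) and 1068.5 (S18) against 891 CPM (S17). The library pairs high for the most phase members were also neighbours, S1 and S3 with S2 and S4 in Si8. In DC they were S10 and S14 with S9 and S13, though S11 and S13 came close (21 against 20 of 41). No member's call changed direction in any setting. In DC, 3 members were higher in goblet cells (2 to 10 with a library left out, 8 with no filter on low counts) and 2 lower (1 to 3, and 1 with library totals). In Si8, 39 were higher (34 to 39 with a library left out, 35 to 39 otherwise) and 2 lower throughout. DC goblet cells were lower than Si8 goblet cells for 28 (25 to 29, and 10 with library totals), and DC other than Si8 other cells for 11 (5 to 14, and 3 with library totals). The log2 fold change of the goblet effect was lower in DC than in Si8 for 6 (2 to 11, 3 with library totals, 12 with no filter). The share of all genes called moved over these settings as well. From 22.9 to 31.2% were called higher in DC goblet cells, and from 29.1 to 34.6% in Si8 goblet cells. In DC, 16.9 to 33.6% were called lower between the goblet groups and 22.6 to 35.3% between the other cells. For the difference of the goblet effect, 12.7 to 18.3% were called lower. The causes were not tested.

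The DC count of members higher moved by over 1.5 times without goblet library S18 (6), or other-cell library S10 (5) or S14 (10). Beside these, 26.6, 25.7 and 27.8% of all genes were called higher. The count of members lower in DC other than in Si8 other cells did so without DC S12 (5), Si8 S1 (7) or Si8 S3 (6). That of the difference between regions did so without DC goblet S11 or S18 (2 each), DC other S10 or S14 (2 each) or S12 (10), Si8 goblet S2 (3) or S8 (2), or Si8 other S3 (11), S5 (3) or S7 (2). Ccnd2, Mybl2 and Cdkn1c kept the call of that difference in every setting. Depth limits the scarcest members most, of which E2f1 had as few as 49 reads in a library.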
